A study of Mus musculus with 13 samples.

Results

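The combined effect of Pdcd10 loss in brain endothelium and of low oxygen on brain gene expression was compared with the sum of the separate effects, using all 13 of the 13 RNA-seq libraries of the series. For each gene the log2 difference between hypoxia and normoxia in control mice was subtracted from the same difference in knockout mice. This difference of differences, the genotype by oxygen interaction, was fitted for 22507 of 55416 genes, those with enough counts to test. At a value of 0 the effects of the knockout and of hypoxia multiply on the count scale, and a positive value places the knockouts in hypoxia above that level.

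The control mice (flox) had the genotype Pdcd10fl/fl, and 3 libraries came from normoxia (21% O2) and 3 from hypoxia (12% O2 for 7 days). The knockouts (KO) were Slco1c1-iCreERT2;Pdcd10fl/fl, with 3 libraries in normoxia and 4 in hypoxia. Their Cre recombinase is tamoxifen-inducible and driven from Slco1c1, a thyroid hormone and anion transporter gene of brain endothelium, and recombination was induced with 50 µg of 4-hydroxytamoxifen given on postnatal day 1. The floxed alleles were thus shared by all 4 groups. The series' design text also names Cre carriers without injection among the controls. It does not say which control animals received the drug, and age at harvest was not given in the labels. These also name no animals, so the p-values below measure only the spread between these libraries. The tissue was whole brain tissue, in which fewer cells of a type and less RNA per cell cannot be told apart.

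Pdcd10, also called Ccm3, encodes an adaptor protein that restrains a MAP kinase pathway leading to the transcription factors KLF2 and KLF4 in endothelial cells. Its loss there causes cerebral cavernous malformations, clusters of wide, leaky capillaries that bleed and are surrounded by reactive astrocytes and activated microglia. Low oxygen stabilises the hypoxia-inducible factors, which induce Vegfa, glycolytic enzymes and blood vessel growth. Both conditions therefore act on brain vessels, and the interaction asks whether hypoxia does something different in a brain that carries the endothelial deletion.

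Total counts ranged from 42090437 to 71216636 per library, and replicates differed by more than counting noise in every pair. Pdcd10 itself ranged from 16.2 to 17.8 counts scaled to library size (CPM) in the flox normoxia libraries and from 14.7 to 17.0 CPM in KO hypoxia, so the deletion in endothelial cells was not visible in whole-tissue RNA. The library KO hypoxia replicate 1 stood apart, with 1.717% of its counts from hemoglobin genes against 0.3453% to 0.4185% in the other KO hypoxia libraries, and it had the lowest quality weight of the 13 libraries (0.556). All libraries are labelled male, but 4 of them expressed Xist and lacked Y-linked transcripts: flox normoxia replicate 3, KO normoxia replicate 3, and KO hypoxia replicates 3 and 4. No flox hypoxia library was among them, so sex as read from these transcripts is unevenly spread over the 4 groups. Values without KO hypoxia replicate 1 are given beside many of the results. Of the 83 named genes at an unadjusted p under 0.05, 28 did not reach it when the 9 libraries without Xist were fitted alone. With a term for Xist and without KO hypoxia replicate 1, 31 of the 83 did not reach it. None of the 83 changed sign in either fit. They were mostly chosen by their values in the full fit, which shares these libraries, so a kept sign was favoured by the choice and says little about sex.

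No gene departed from additivity by edgeR's quasi-likelihood test at an adjusted p under 0.05 (0 of 22507 genes, 0.0%), and the smallest adjusted p was 0.563. An unadjusted p under 0.05 was found for 1635 genes (7.26%), of which the interaction was positive for 920 (4.09% of those tested) and negative for 715 (3.18%). These shares are the background for every list below. Whatever the p, the estimate was positive for 11585 of the 22507 genes. DESeq2 called 3 genes, Syt6, Csf2rb2 and the predicted gene Gm4631, and limma on log2(RPKM + 1) called 2, Gh and Mir8116. Voom with sample quality weights called 0. Without the low-count filter the same edgeR test did call genes, so the absence of calls depended on that filter. Serpina3n then had the smallest adjusted p (0.00013), and Sparc, Fn1, Col1a1, Acta2, Cebpd, A2m, H2-D1 and Syt6 were among the others called. The number of calls under each setting is given in the last section. Gm4631 and Mir8116 fall outside the rule for named genes, so their choice followed from their values. The interaction is the least precise contrast of the design, with a median standard error of 0.16 on the log2 scale against 0.109 to 0.117 for the single effects. For 12536 genes (55.7%) the 95% confidence interval of the interaction lay within 1.5-fold of 0 in either direction, and for the rest it reached beyond that range.

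Most genes at an unadjusted p under 0.05 had hypoxia effects of opposite sign in the 2 genotypes. They were chosen by the difference between these 2 effects, whose medians over all genes were small (-0.002 in flox and 0.009 in KO). Opposite signs are therefore favoured by the choice itself, and the counts are description only. Among the 920 with a positive value, hypoxia had a negative estimate in flox and a positive estimate in KO for 788, and estimates were positive in both genotypes for 120. Among the 715 with a negative value, 617 had a positive estimate in flox and a negative one in KO. The knockout effect was negative in normoxia and positive in hypoxia for 522 of the positive genes, and the reverse held for 609 of the negative genes. The choice of genes favours this pattern too, since the interaction is also the difference between the 2 knockout effects. On the linear CPM scale the sign of the departure differed for 0 of the positive and 2 of the negative genes, against 577 of all 22507 genes. The direction of these chosen genes thus seldom depended on the scale of the expectation.

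Direction also went with expression level. Of 9320 genes with a mean log2 CPM under 2, 4.28% were positive and 1.33% negative at an unadjusted p under 0.05. Of 6971 genes from 2 to 5 the shares were 5.14% and 2.15%, and of 6216 genes at 5 or more they were 2.62% and 7.09%. Weakly and moderately expressed genes thus leaned to positive departures and abundant genes to negative ones, as the plot of direction by level shows. The median interaction was 0.10, 0.02 and -0.04 in these ranges, a closer background for lists of mostly weak or mostly abundant genes. The share of positive genes over all levels depended on how libraries were scaled. Of the genes at an unadjusted p under 0.05, 56.27% were positive with TMM scaling, 58.44% with RLE scaling and 73.02% without a composition factor. The shares by expression level were computed with TMM scaling only.

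**Figure D1:**
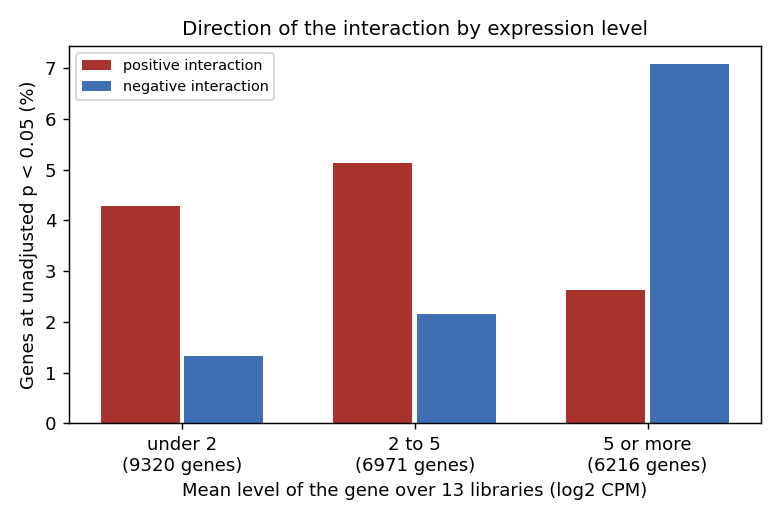
Share of tested genes with an unadjusted p under 0.05 for the interaction (y axis, percent), by direction, in 3 ranges of mean expression (x axis, log2 CPM over the 13 libraries). Positive values are more frequent below 5 log2 CPM (4.28% and 5.14%) and negative values at 5 or more (7.09%).

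Genes of the extracellular matrix, the collagens, laminins and glycoproteins around vessels and in the meninges, had the clearest positive shift. Of 36 genes tested, 18 were positive and 0 negative at an unadjusted p under 0.05, and the median interaction was 0.41 against 0.01 over all genes. Sparc, which encodes a collagen-binding glycoprotein made by endothelium and astrocytes, illustrates the pattern at a high level. Its CPM was 210, 263 and 265 in flox normoxia, 306, 254 and 295 in KO normoxia, 293, 281 and 272 in flox hypoxia, and 454, 371, 432 and 486 in KO hypoxia. All 4 KO hypoxia libraries were above every other library and above the 326 CPM that the separate effects predict. The interaction was 0.42 ± 0.13 (SE, unadjusted p = 0.00693, adjusted p = 0.625 by edgeR) and 0.40 without KO hypoxia replicate 1.

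Fn1, which encodes fibronectin, showed a different shape. It was at 68.6, 67.5 and 69.8 CPM in flox normoxia, 185, 200 and 179 in KO normoxia, 83.3, 77.4 and 86.2 in flox hypoxia, and 489, 274, 311 and 249 in KO hypoxia. The knockout effect alone was large, the KO hypoxia libraries did not overlap with any other group, and all lay above the expected 226 CPM, with replicate 1 farthest. The interaction of 0.55 ± 0.23 (unadjusted p = 0.0306) was 0.30 without that library, at an unadjusted p of 0.00739. Other members with positive values were the elastic-fibre gene Fbln5 (0.73 ± 0.20), the small proteoglycan gene Lum (0.92 ± 0.29), Col6a2 (0.54 ± 0.18) and the fibrillar collagen gene Col1a1 (0.94 ± 0.36). Without KO hypoxia replicate 1, 15 of the 36 genes were positive and 0 negative, all 15 among the 18 above, and the median was 0.29. The background without this library was 806 positive genes of 22278 (3.62%) and 669 negative (3.0%).

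The matrix genes were not raised by hypoxia as a class in flox mice, where 18 of 36 estimates were positive, whereas 33 of 36 were positive in KO. The departure from the additive level, taken in each KO hypoxia library as a median over the 36 genes, was 0.74, 0.17, 0.38 and 0.22 on the log2 scale in replicates 1 to 4. Meningeal fibroblast markers moved with it in part. Of 15 tested, 6 were positive and 0 negative, and of these 6 all but the transporter gene Slc47a1 also stand in the matrix list. Their summed level ranged from 642 to 778 CPM in flox normoxia, 566 to 766 in KO normoxia, 649 to 735 in flox hypoxia and 537 to 854 in KO hypoxia, and the part of meningeal tissue in the matrix values was not tested.

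**Figure D2:**
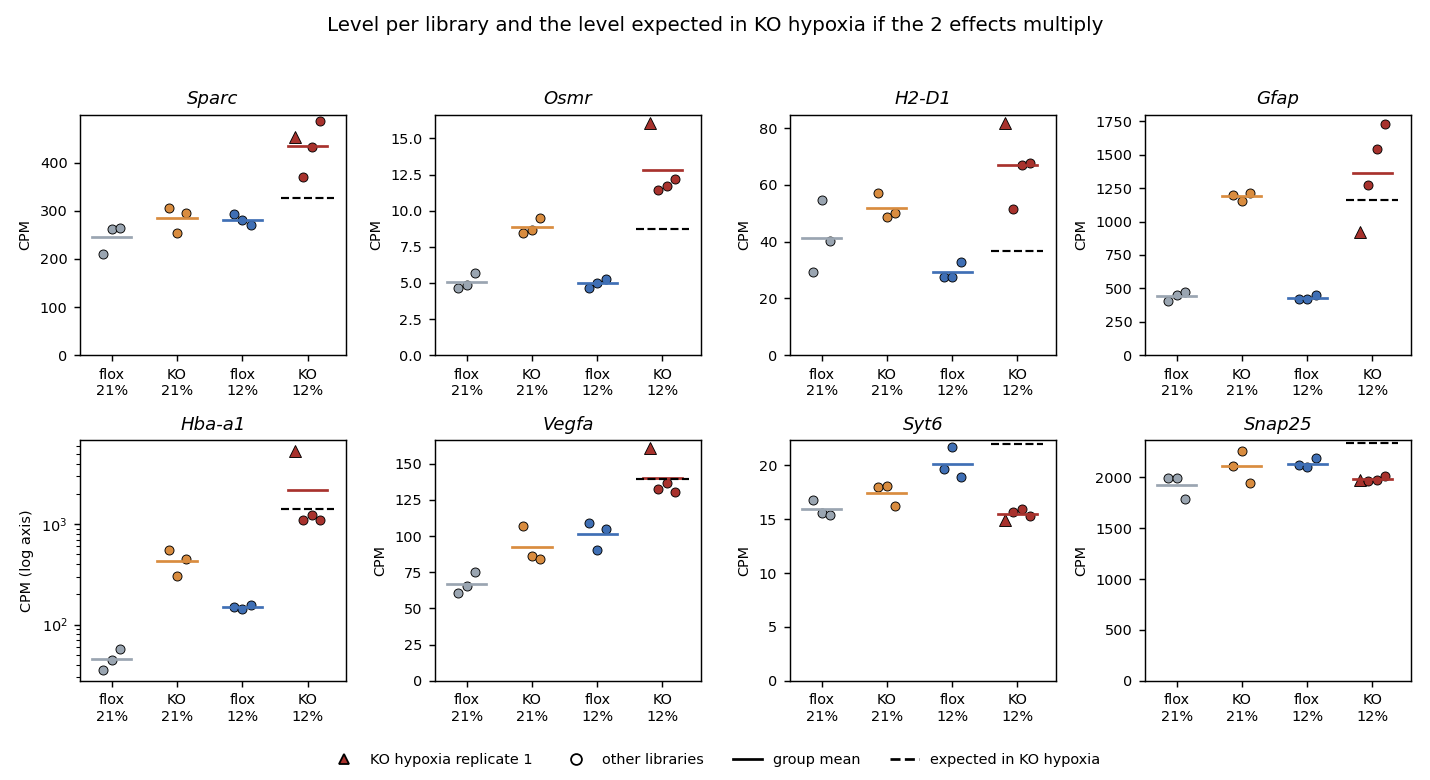
CPM of 8 genes in each library (points, with KO hypoxia replicate 1 as a triangle), by genotype and oxygen, with group means (lines) and the level expected in KO hypoxia if the effects multiply (dashed). Sparc, Osmr and H2-D1 lie above the dashed line in all 4 KO hypoxia libraries, Syt6 and Snap25 below it in all 4, Vegfa on both sides of it, and Hba-a1 is above it in replicate 1 and below it in the other 3 (log axis for Hba-a1). All 4 libraries were on the same side of the additive level for 915 of the 920 positive and 715 of the 715 negative genes at an unadjusted p under 0.05.

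Vessel wall cells other than endothelium gave a mixed picture. Of 12 smooth muscle genes all 12 had positive estimates and 2 an unadjusted p under 0.05, with a median of 0.34 (1 gene and a median of 0.22 without KO hypoxia replicate 1). Acta2, the smooth muscle actin gene, was at 4.29, 5.86 and 5.91 CPM in flox normoxia, 6.61, 7.10 and 4.94 in KO normoxia, 3.72, 5.53 and 4.44 in flox hypoxia, and 14.5, 8.76, 9.10 and 10.7 in KO hypoxia. No other library reached the lowest KO hypoxia value. The interaction was 1.02 ± 0.28 (unadjusted p = 0.00212) and 0.84 without replicate 1. The 12 pericyte genes had a median of 0.07, with the peptidase gene Anpep at 0.61 ± 0.23 (0.40 without replicate 1) and Cox4i2, which encodes a cytochrome oxidase subunit of pericytes, at -0.68 ± 0.26. That median was -0.02 without replicate 1.

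Endothelial markers had small interactions as a class. Of 18 pan-endothelial genes, 1 was positive at an unadjusted p under 0.05 (Robo4, a guidance receptor that stabilises vessels, at 0.38 ± 0.17) and 0 negative, and the median was 0.11. Without replicate 1 the list had 0 positive genes, 1 negative and a median of -0.05, and Robo4 was at 0.25 (unadjusted p = 0.0721). Hypoxia had a positive estimate for all 18 genes in flox and for all 18 in KO. Their summed level was 291 to 322 CPM in flox normoxia, 553 to 636 in KO normoxia, 388 to 425 in flox hypoxia and 735 to 1177 in KO hypoxia, so that the knockout and hypoxia each went with a higher level. The part of this endothelial content in the matrix values was not tested. Tek, the angiopoietin receptor gene, had an interaction of 0.01 ± 0.16, with a 95% interval from -0.33 to 0.34. The 18 genes were all highest in replicate 1 among the KO hypoxia libraries.

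The KLF2 and KLF4 axis, the endothelial programme that CCM proteins restrain, had 2 of 13 genes positive at an unadjusted p under 0.05 (Adamts9, 0.48 ± 0.20, and Cdkn1a, 0.48 ± 0.22) and 0 without replicate 1. Klf2 was at 9.03, 12.3 and 19.0 CPM in flox normoxia, 35.3, 26.0 and 21.7 in KO normoxia, 25.6, 20.9 and 21.3 in flox hypoxia, and 60.7, 34.2, 48.7 and 49.7 in KO hypoxia. These KO hypoxia values lie on both sides of the expected 46.5 CPM. Its interaction was 0.06 ± 0.32 and that of Klf4 was 0.19 ± 0.33, with 95% intervals from -0.62 to 0.75 and from -0.52 to 0.90, which still allow a departure of more than 1.5-fold. The endothelial nitric oxide synthase gene Nos3 was bounded more tightly (0.07 ± 0.17, interval -0.30 to 0.44), and the anticoagulant receptor gene Thbd was at 0.26 ± 0.22, and at 0.05 without replicate 1. Klf2, Klf4, Nos3 and Tek changed sign under some alternative settings.

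Among 28 genes of tip cells and angiogenesis, 2 were positive, 1 negative and the median was 0.23 (0.12 without replicate 1). Vegfa, the main endothelial growth factor gene, was at 60.6, 65.5 and 75.5 CPM in flox normoxia, 107, 86.2 and 84.0 in KO normoxia, 109, 90.4 and 105 in flox hypoxia, and 161, 133, 137 and 130 in KO hypoxia. The expected level was 139 CPM, within the range of the KO hypoxia libraries. The interaction was 0.01 ± 0.14 with a 95% interval from -0.29 to 0.31. Angpt2, the antagonist of the Tek receptor, had 0.54 ± 0.28 (unadjusted p = 0.0754), and Kdr, the VEGF receptor gene, had -0.28 ± 0.17 (unadjusted p = 0.115).

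Aplnr, the apelin receptor gene of sprouting endothelium, was the negative member. It was at 0.341, 0.301 and 0.599 CPM in flox normoxia, 3.30, 3.31 and 2.6 in KO normoxia, 1.24, 0.622 and 1.65 in flox hypoxia, and 2.72, 2.50, 4.51 and 2.6 in KO hypoxia. The KO groups overlapped each other and lay above both flox groups, and the expected level was 8.67 CPM. The interaction was -1.45 ± 0.45 (unadjusted p = 0.00563) and -1.39 without replicate 1. The positive members were the chemokine receptor gene Cxcr4 (0.65 ± 0.26) and the tip cell gene Esm1, at or under 0.739 CPM in every library (1.32 ± 0.57). Of 20 blood-brain barrier genes, 0 were positive and 1 negative: Slc38a5, a glutamine transporter gene, had -0.40 ± 0.14 and -0.42 without replicate 1.

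Erythroid genes had the highest median of all lists, and it rested on a single library. The median over 10 genes was 0.83 with all libraries and 0.13 without KO hypoxia replicate 1. Hba-a1, an alpha globin gene with a near-identical neighbouring copy, was at 35.5, 44.8 and 57.2 CPM in flox normoxia, 549, 306 and 449 in KO normoxia, 150, 144 and 156 in flox hypoxia, and 5305, 1092, 1228 and 1110 in KO hypoxia. The separate effects predict 1420 CPM, so replicate 1 lay above and the other 3 libraries below this level. The interaction was 0.62 ± 0.65 with all libraries and -0.31 (unadjusted p = 0.209) without replicate 1. No erythroid gene had an unadjusted p under 0.05 with all libraries, and 1 did without replicate 1: Bpgm, the red cell enzyme that makes bisphosphoglycerate, at 0.22 (unadjusted p = 0.0152). The departure of the list was 2.15, 0.01, 0.28 and 0.08 in replicates 1 to 4.

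Other genes linked to blood and heme stood equally high in replicate 1. Tent5c, which encodes an RNA-tailing enzyme of red cell precursors, was at 40.5, 8.16, 11.6 and 7.10 CPM in KO hypoxia replicates 1 to 4 against an expected 5.78. Hmox1, the heme-degrading oxygenase gene, was at 32.9, 7.05, 10.1 and 8.94 CPM against 5.96, and the ubiquitin-conjugating enzyme gene Ube2l6 was at 55.8, 14.1, 17.2 and 12.0 CPM against 9.46. Each gene was above its expected level in every KO hypoxia library, as were 915 of the 920 positive genes. Their interactions of 1.56 ± 0.72, 1.32 ± 0.60 and 1.40 ± 0.63 were 0.65, 0.55 and 0.62 without replicate 1. The parts that blood content and this library's other differences had in these values were not tested.

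Reactive astrocyte genes had 10 of 32 members positive and 0 negative at an unadjusted p under 0.05, with a median of 0.45. Without KO hypoxia replicate 1, 12 were positive and 0 negative, including all 10, and the median was 0.33. Osmr, the oncostatin M receptor gene through which astrocytes receive inflammatory signals, was at 4.63, 4.87 and 5.67 CPM in flox normoxia, 8.43, 8.70 and 9.48 in KO normoxia, 4.63, 4.97 and 5.28 in flox hypoxia, and 16.1, 11.4, 11.7 and 12.2 in KO hypoxia. The flox groups overlapped, and all 4 KO hypoxia libraries were above the KO normoxia libraries. The interaction was 0.57 ± 0.17 (unadjusted p = 0.00512) and 0.44 without replicate 1. Vim, the intermediate filament gene of reactive glia and endothelium, had 0.57 ± 0.22 and 0.33 without replicate 1, and the asparaginase gene Aspg had 0.81 ± 0.29 and 0.69.

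Gfap, the defining filament of reactive astrocytes, did not follow this pattern in replicate 1. Its CPM was 403, 447 and 471 in flox normoxia, 1201, 1150 and 1214 in KO normoxia, 423, 416 and 449 in flox hypoxia, and 918, 1272, 1543 and 1732 in KO hypoxia. Replicate 1 was the lowest KO library, below the expected 1160 CPM, while the other 3 KO hypoxia libraries were above every KO normoxia library. The interaction was 0.24 ± 0.20 (unadjusted p = 0.265) with all libraries and 0.39 (unadjusted p = 0.00495) without replicate 1. Homeostatic astrocyte genes had a median of 0.01 over 17 genes, 2 positive and 1 negative, and all 17 confidence intervals lay within 1.5-fold. Without replicate 1, 5 were positive and 1 negative, and the median was 0.02. Slc1a3, a glial glutamate transporter gene, had the smallest p among them at 0.27 ± 0.08 (unadjusted p = 0.00226).

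Serpina3n, a secreted protease inhibitor gene that marks reactive astrocytes and belongs to a family of similar copies, had the highest interaction of the named genes above 2 log2 CPM. It was at 76.7, 67.8 and 62.3 CPM in flox normoxia, 24.2, 20.9 and 75.5 in KO normoxia, 17.4, 17.1 and 18.7 in flox hypoxia, and 49.0, 22.6, 29.7 and 38.1 in KO hypoxia. The flox normoxia libraries were high and KO normoxia was split, with the Xist-expressing replicate 3 apart from the other 2. The interaction was 1.76 ± 0.50 (unadjusted p = 0.00309), 1.55 without KO hypoxia replicate 1 and 2.59 without KO normoxia replicate 3, where edgeR called 1 gene, this one (adjusted p = 0.00658). Lcn2, which encodes the iron carrier lipocalin, was at 10 CPM in KO hypoxia replicate 1 and between 0.129 and 0.464 CPM in the other 12 libraries. Its interaction was 4.81 ± 1.89 with that library and 1.77 without it.

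Immune genes leaned the same way, with smaller counts. Many were weakly expressed: 11 of 20 antigen presentation genes and 19 of 34 cytokine genes were under 2 log2 CPM. So were 10 of 23 disease-associated microglia genes and 9 of 12 border-associated macrophage genes, but only 1 of 18 homeostatic microglia genes. Over all genes in that range the median was 0.10, with 4.28% positive and 1.33% negative. All 18 homeostatic microglia genes had positive estimates and 6 an unadjusted p under 0.05, with a median of 0.25; without KO hypoxia replicate 1 these were 2 genes and a median of 0.17. Aif1, the gene of the microglial marker IBA1, was at 3.41, 5.31 and 5 CPM in flox normoxia, 3.62, 3.65 and 4.14 in KO normoxia, 2.66, 3.09 and 2.46 in flox hypoxia, and 6.21, 3.41, 4.19 and 4.62 in KO hypoxia. The flox hypoxia libraries were the lowest, and KO hypoxia overlapped both normoxia groups. The interaction was 1.02 ± 0.28 (unadjusted p = 0.00206) and 0.84 without replicate 1. Cx3cr1, the fractalkine receptor gene of microglia, was at 0.17 ± 0.12, and its neuronal ligand gene Cx3cl1 at -0.13 ± 0.09. Both moved closer to 0 without replicate 1, to 0.07 and -0.07.

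Of 23 disease-associated microglia genes 5 were positive and 0 negative with a median of 0.33 (3 positive and a median of 0.22 without replicate 1), led by the tetraspanin gene Cd9 (0.56 ± 0.14, unadjusted p = 0.00118) and including the lysozyme gene Lyz2 (0.93 ± 0.40, and 0.49 without replicate 1). Of 12 border-associated macrophage genes, 3 were positive with a median of 0.39, and 1 with a median of 0.22 without replicate 1. With all libraries 8 of these 12 estimates were positive and 4 negative. The carbonyl reductase gene Cbr2 of this list was at 1.41 ± 0.49 from levels at or under 1.36 CPM. The complement list had 3 of 17 genes positive and 0 negative, with a median of 0.40, and 1 positive gene and a median of 0.21 without replicate 1. The anaphylatoxin receptor gene C3ar1 was at 0.93 ± 0.32, and C1qa, which encodes a chain of the initiating complex, was at 0.47 ± 0.19 with all libraries and at 0.33 (unadjusted p = 0.0515) without replicate 1. Neutrophil and monocyte genes had 1 of 9 positive, with and without that library. T and B lymphocyte genes had 1 positive and 1 negative of 10 (0 and 1 without it), with 8 of these 10 under 2 log2 CPM. Infiltrating leukocytes could thus hardly be assessed at these levels.

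All 20 antigen presentation genes had positive estimates, 5 of them at an unadjusted p under 0.05, with a median of 0.43 (0.30 and 4 genes without replicate 1). H2-D1, a classical class I molecule gene whose reads can be shared with related copies, was at 29.2, 54.7 and 40.4 CPM in flox normoxia, 57.3, 48.6 and 50.1 in KO normoxia, 27.6, 27.5 and 32.8 in flox hypoxia, and 82.0, 51.6, 67.0 and 67.9 in KO hypoxia. The flox hypoxia libraries were low and the flox normoxia libraries scattered, and KO hypoxia replicate 2 overlapped KO normoxia. The interaction was 0.87 ± 0.25 (unadjusted p = 0.00284) and 0.76 without replicate 1. B2m, the light chain gene of the same molecules, had 0.34 ± 0.14, and the class II transactivator gene Ciita had 0.67 ± 0.22. Hypoxia had a positive estimate for 6 of the 20 genes in flox and for 20 in KO. The interferon list, by contrast, had 1 of 26 genes positive (the ADP-ribosyltransferase gene Parp14, 0.59 ± 0.27) with a median of 0.15. Without replicate 1 it had 0 positive genes and a median of 0.02.

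Cytokine, chemokine and adhesion genes had 6 of 34 positive and 0 negative, with a median of 0.43 (0.31, with 4 positive and 1 negative, without replicate 1). The inhibitor of NF-kappa-B gene Nfkbia was at 0.67 ± 0.24, the subunit gene Relb at 0.45 ± 0.16 and the endotoxin co-receptor gene Cd14 at 0.83 ± 0.32. The transcription factor gene Cebpd, induced in acute inflammation, was at 6.10, 6.87 and 10.5 CPM in flox normoxia, 6.80, 6.46 and 6.99 in KO normoxia, 10, 8.51 and 9.27 in flox hypoxia, and 27.5, 14.0, 13.9 and 15.5 in KO hypoxia. All KO hypoxia libraries were above all others, and replicate 1 was far above the remaining 3. The interaction was 1.16 ± 0.32 (unadjusted p = 0.00273) and 0.86 without replicate 1, where the unadjusted p was 0.000977. Csf2rb2, a cytokine receptor subunit gene with a near-identical neighbour, had 1.79 ± 0.35 at levels at or under 3.98 CPM and was called by DESeq2.

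Coagulation genes had 2 of 16 positive, with a median of 0.38 (1 gene and a median of 0.22 without replicate 1). A2m, a broad protease inhibitor gene, was at 3, 3.90 and 4.06 CPM in flox normoxia, 7.50, 5.37 and 6.55 in KO normoxia, 5.85, 4.76 and 5.26 in flox hypoxia, and 27.8, 15.3, 15.7 and 16.6 in KO hypoxia. All 4 KO hypoxia libraries exceeded the expected 9.38 CPM, and their lowest value was above every other library. The interaction was 1.02 ± 0.29 (unadjusted p = 0.00303) and 0.77 without replicate 1. Thbs1, the gene of the matrix protein thrombospondin, had 1.15 ± 0.48, and 0.57 without replicate 1, which stood at 15.6 CPM against 4.99 to 5.53 in the other 3.

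**Figure D3:**
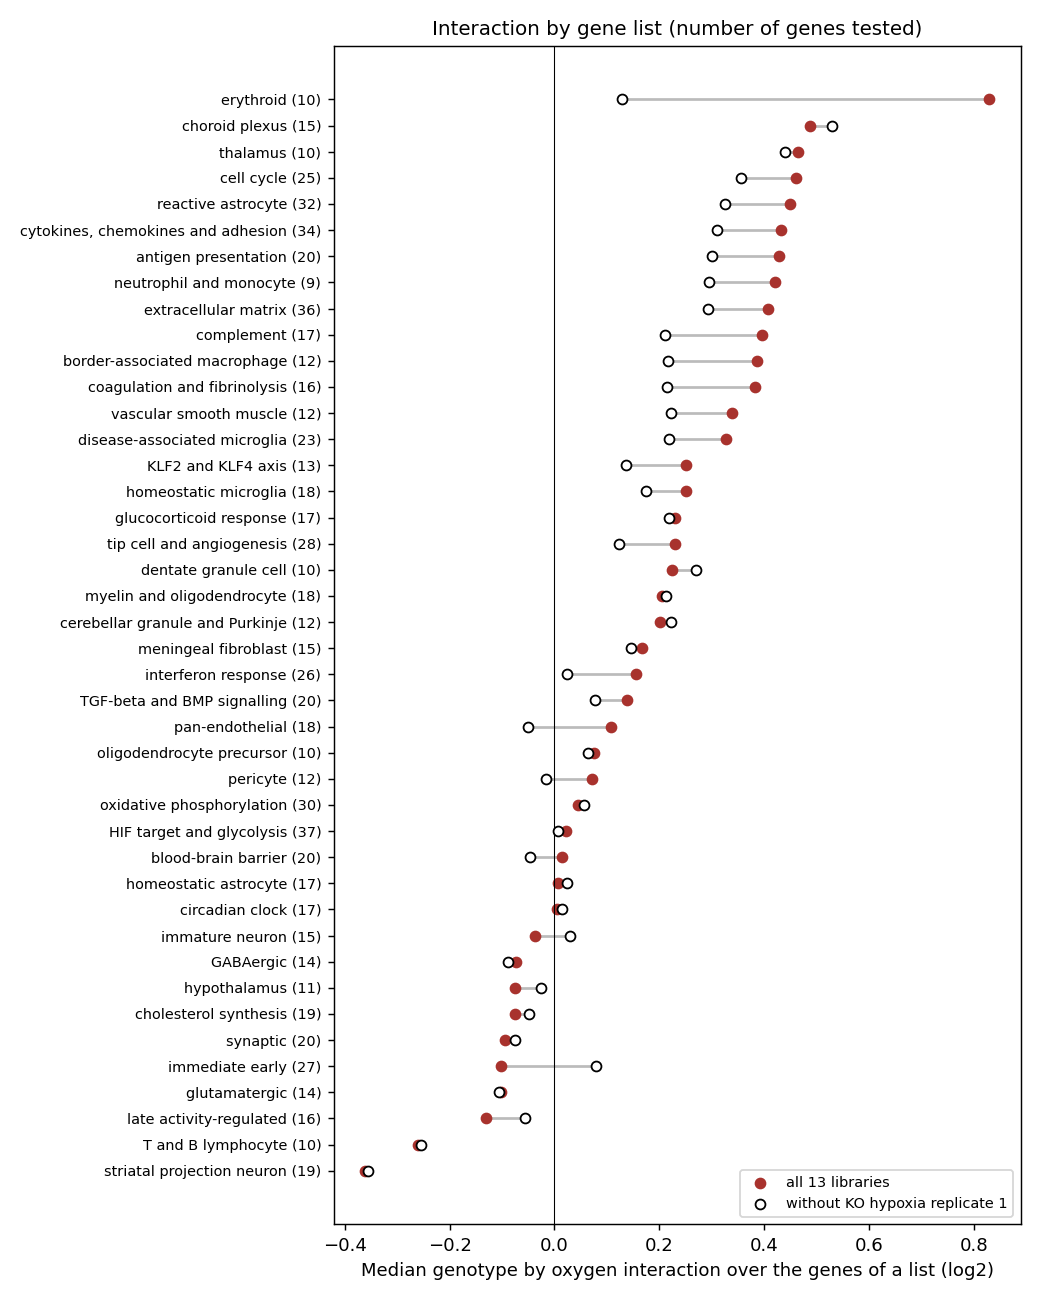
Median interaction (x axis, log2) over the tested genes of each list with all 13 libraries (filled) and without KO hypoxia replicate 1 (open), and the number of genes tested in brackets. The erythroid median falls from 0.83 to 0.13, matrix and glial lists stay positive, and synaptic and striatal lists keep their negative medians.

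Cell cycle genes had 5 of 25 positive and 0 negative, with a median of 0.46 (3 genes and a median of 0.36 without replicate 1). These genes were weakly expressed, 18 of 25 being under 2 log2 CPM. Over all genes in that range the median was 0.10, with 4.28% positive and 1.33% negative. Top2a, the topoisomerase gene of dividing cells, was at 1.63, 3.38 and 3.74 CPM in flox normoxia, 2.58, 2.89 and 2.91 in KO normoxia, 2.51, 2.59 and 3.27 in flox hypoxia, and 4.75, 4.00, 4.50 and 4.12 in KO hypoxia. Every KO hypoxia library was above every other library. The interaction was 0.71 ± 0.30 (unadjusted p = 0.0328) and 0.66 (unadjusted p = 0.0503) without replicate 1. The replication helicase gene Mcm3 had 0.58 ± 0.21 and the cyclin gene Ccna2 had 0.63 ± 0.26. Hypoxia had a positive estimate for 7 of the 25 genes in flox and for 22 in KO, and the departure of the list was 0.57, 0.29, 0.35 and 0.45 in replicates 1 to 4.

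The hypoxia-inducible factor targets and glycolytic enzymes were close to additive as a class. Of 37 genes tested, 1 was positive and 1 negative, the median was 0.02 (0.01 without replicate 1), and 27 confidence intervals lay within 1.5-fold. Hypoxia had a positive estimate for 26 of the 37 in flox and 27 in KO. The median hypoxia effect of the list was only 0.06 in flox and 0.10 in KO, so the class showed little response that could differ. The positive member was the hexokinase gene Hk2, at 4.63, 4.30 and 3.59 CPM in flox normoxia, 4.23, 3.91 and 4.90 in KO normoxia, 3.86, 3.45 and 2.92 in flox hypoxia, and 6.91, 4.83, 5.27 and 5.78 in KO hypoxia. Only replicate 2 of KO hypoxia fell within the range of KO normoxia. The interaction was 0.68 ± 0.21 (unadjusted p = 0.00545) and 0.57 without replicate 1. Oxidative phosphorylation genes had a median of 0.04 with all 30 intervals within 1.5-fold, and cholesterol synthesis genes a median of -0.07 with all 19 within that range.

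Synaptic, glutamatergic, GABAergic and striatal genes lay on the negative side. All 20 synaptic genes had negative estimates, 3 at an unadjusted p under 0.05, and the median was -0.09 (-0.08 with 3 genes without replicate 1). All 20 are expressed at 5 log2 CPM or more, where 7.09% of all genes were negative, and the median of that stratum was -0.04. Snap25, a core gene of the vesicle fusion machinery, was at 1997, 1998 and 1788 CPM in flox normoxia, 2115, 2263 and 1944 in KO normoxia, 2117, 2104 and 2187 in flox hypoxia, and 1971, 1963, 1977 and 2013 in KO hypoxia. The KO hypoxia libraries agreed closely, overlapped both normoxia groups and lay below every flox hypoxia library and the expected 2335 CPM. The interaction was -0.24 ± 0.07 (unadjusted p = 0.00367) and -0.23 without replicate 1.

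The calcium sensor gene Syt1 (-0.17 ± 0.05) and the vesicle phosphoprotein gene Syn1 (-0.16 ± 0.06) were the other 2 synaptic members. Hypoxia had a positive estimate for 9 of the 20 genes in flox and for 0 in KO, and the departure of the list was -0.11, -0.09, -0.07 and -0.12 in replicates 1 to 4, so no library stood apart. Glutamatergic genes had 0 positive and 3 negative of 14 (median -0.10), with Tbr1, the transcription factor gene of deep cortical neurons, at -0.30 ± 0.10, and the receptor subunit genes Gria3 and Grin1 at -0.15 ± 0.05 and -0.13 ± 0.06. GABAergic genes had 0 positive and 2 negative of 14 (median -0.07), and all 14 intervals lay within 1.5-fold.

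Striatal projection neuron genes had the lowest median of the lists, -0.36 over 19 genes, all 19 estimates being negative and 6 at an unadjusted p under 0.05. Ppp1r1b, which encodes the dopamine-regulated phosphatase inhibitor of these cells, was at 82.9, 102 and 69.9 CPM in flox normoxia, 82.7, 78.6 and 72.9 in KO normoxia, 144, 161 and 102 in flox hypoxia, and 87.4, 106, 85.2 and 83.3 in KO hypoxia. The flox hypoxia libraries were high, 2 of them above every other library, and all KO hypoxia libraries lay below the expected 125 CPM. The interaction was -0.47 ± 0.20 (unadjusted p = 0.0331) and -0.45 without replicate 1, and its unadjusted p was under 0.05 in 5 of the 13 fits with 1 library left out. The sodium channel subunit gene Scn4b had -0.62 ± 0.27 (-0.55, at an unadjusted p of 0.056, without replicate 1) and the receptor gene Gpr6 -0.57 ± 0.22. All 19 genes had a positive hypoxia estimate in flox. The summed level of the list was 1031 to 1285 CPM in flox normoxia, 1066 to 1085 in KO normoxia, 1261 to 1657 in flox hypoxia and 1025 to 1290 in KO hypoxia, and the share of striatum in each tissue piece was not tested. The departure was -0.36, -0.08, -0.36 and -0.51 in replicates 1 to 4, and the median was -0.12 when fitted on the 9 libraries without Xist.

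**Figure D4:**
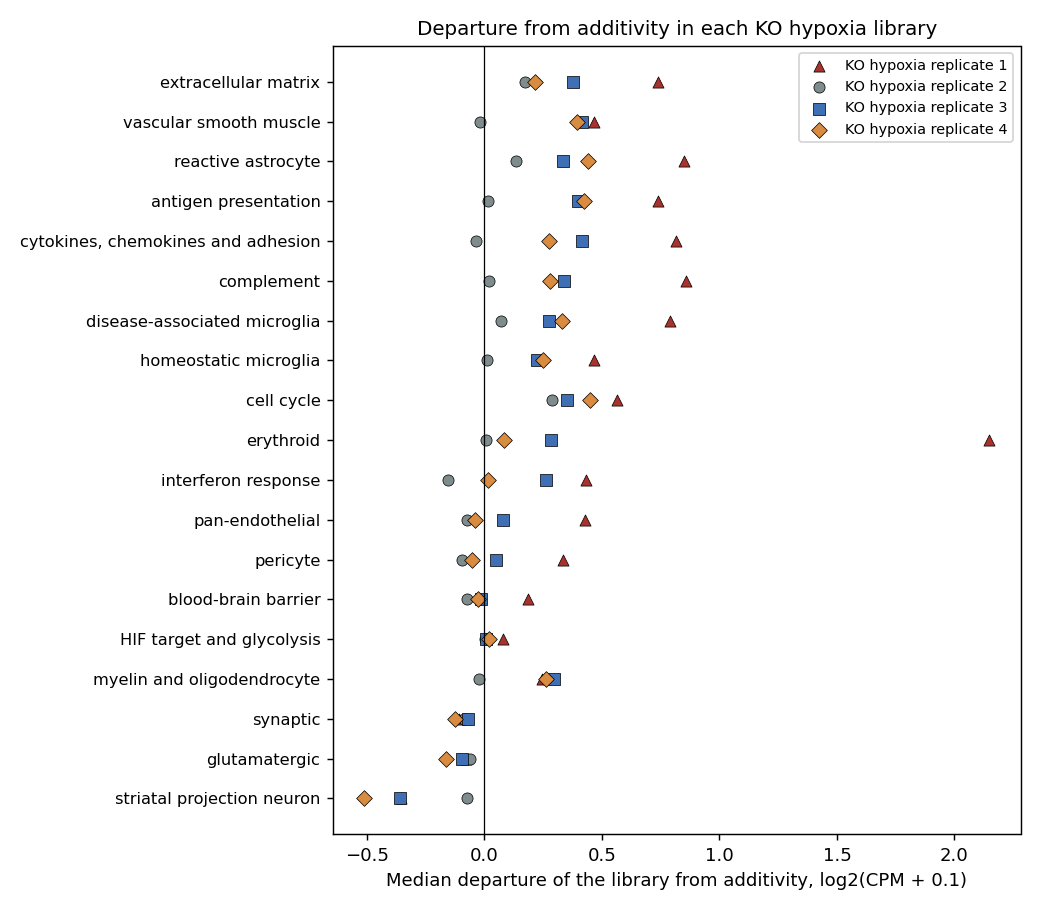
Median departure from the additive level (x axis, log2 of CPM + 0.1) of selected gene lists in each of the 4 KO hypoxia libraries (symbols). Replicate 1 is farthest to the right for matrix, reactive astrocyte, microglia, immune and erythroid lists (2.15 for erythroid genes), and replicate 2 is near 0 for most of them. In the myelin list replicate 3 is farthest to the right (0.30 against 0.24 in replicate 1). The 4 libraries lie together for synaptic genes (-0.12 to -0.07).

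Syt6, a synaptotagmin gene of deep cortical neurons, had the smallest unadjusted p of the named genes, and kept p under 0.05 in each fit with 1 library left out. It was at 16.8, 15.6 and 15.4 CPM in flox normoxia, 18, 18.1 and 16.2 in KO normoxia, 19.6, 21.7 and 18.9 in flox hypoxia, and 15, 15.7, 15.9 and 15.3 in KO hypoxia. Flox hypoxia was above all other libraries, and KO hypoxia below the KO normoxia libraries. The interaction was -0.51 ± 0.10 (unadjusted p = 8.25e-05, adjusted p = 0.563 by edgeR), it ranged from -0.56 to -0.45 over the 13 fits with 1 library left out, and DESeq2 called it. Slitrk1, a synaptic adhesion gene, was of the same kind at -0.26 ± 0.06.

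Positive genes that kept p under 0.05 in all 13 such fits included Appl2, an endosomal adaptor gene (0.28 ± 0.06), Card10, a scaffold gene of NF-kappa-B signalling (0.69 ± 0.15), the metalloproteinase inhibitor gene Timp4 (0.38 ± 0.09), the adhesion gene Kirrel (0.49 ± 0.11), and the secreted protein genes Prss35 (0.79 ± 0.18) and Adamtsl1 (0.51 ± 0.12). Card10 was at 8.78, 8.62 and 8.19 CPM in flox normoxia, 8.62, 9.99 and 9.48 in KO normoxia, 5.61, 6.13 and 6.31 in flox hypoxia, and 10.2, 8.92, 12.3 and 11.2 in KO hypoxia. The flox hypoxia libraries alone were low, and KO hypoxia overlapped KO normoxia. Prss35 differed in that its 4 KO hypoxia libraries alone were high, at 11.2, 9.89, 7.79 and 8.49 CPM against 3.61 to 5.02 in the other 9. A positive interaction could thus arise from either hypoxia group.

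Among the genes with the largest negative values, Dnah6, a motor protein gene of motile cilia, had -1.29 ± 0.39. It was at 2.51, 3.10 and 6.26 CPM in flox normoxia, 5.14, 9.59 and 5.57 in KO normoxia, 10, 9.92 and 10.8 in flox hypoxia, and 6.31, 9.79, 6.11 and 6.47 in KO hypoxia. The groups overlapped, apart from flox hypoxia, which was above all other libraries. Tmem17 and Plcxd1, at -0.61 ± 0.17 and -0.48 ± 0.13, kept p under 0.05 in all 13 fits with 1 library left out. Dynlt1c (0.98 ± 0.37) and Lars2 (1.32 ± 0.43) were among the largest positive values. Lars2, a mitochondrial tRNA synthetase gene whose transcript in mouse holds a ribosomal RNA-like repeat, was at 478, 247, 183 and 136 CPM in KO hypoxia and from 84.6 to 137 CPM elsewhere, and its interaction was 0.86 without replicate 1.

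Myelin genes and most dentate granule cell genes had positive values, with median knockout effects below 0 in normoxia. All 18 myelin genes had positive estimates and 2 an unadjusted p under 0.05 (Cnp, 0.31 ± 0.12, and the regulator gene Myrf, 0.30 ± 0.11), with a median of 0.20 (0.21 without replicate 1). Their median knockout effect was -0.30 in normoxia and -0.08 in hypoxia. Fitted on the 9 Y-transcript libraries alone, the median interaction was -0.02. Of 10 dentate granule cell genes, 7 had positive and 3 negative estimates, and 2 were positive at an unadjusted p under 0.05. Their median was 0.22 (0.27 without replicate 1), and their median knockout effect in normoxia was -0.30. C1ql2, a synaptic organiser gene of these cells, was at 22.6, 22.5 and 21.8 CPM in flox normoxia, 13.2, 12.6 and 12.9 in KO normoxia, 14.8, 20 and 14.4 in flox hypoxia, and 15.0, 12.8, 14.1 and 14.3 in KO hypoxia. Flox normoxia was above all other libraries, and the KO groups overlapped. The interaction was 0.57 ± 0.14 (unadjusted p = 0.000973), and Prox1, the identity factor gene of the same cells, had 0.38 ± 0.14.

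Lists that mark brain regions varied between libraries in ways that bear on these medians. All 15 choroid plexus genes had positive estimates (median 0.49, 0 at an unadjusted p under 0.05), and the median ranged from 0.06 with KO normoxia replicate 2 left out to 0.99 when replicate 3 of that group was left out. The summed level of that list was 196 to 697 CPM in KO normoxia against 640 to 821 in flox normoxia, 673 to 950 in flox hypoxia and 642 to 823 in KO hypoxia. All 10 thalamus genes were positive in sign (median 0.46), again with 0 at an unadjusted p under 0.05. Gh, the growth hormone gene of the pituitary, had 0 counts in all 6 normoxia libraries, 38, 37 and 46 counts in flox hypoxia, and 2, 2, 0 and 0 counts in KO hypoxia. No fold change is given for it, because both normoxia groups were at 0.

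Immediate early genes, which respond within minutes to neuronal activity, had 0 of 27 members at an unadjusted p under 0.05 and a median of -0.10. That median was -0.54 without flox normoxia replicate 3 and 0.13 without flox normoxia replicate 2. Btg2, an antiproliferative gene of this class, was at 16.2, 16.0 and 38.1 CPM in flox normoxia, 24.9, 21.6 and 20.6 in KO normoxia, 78.0, 80.0 and 73.4 in flox hypoxia, and 42.8, 58.8, 62.4 and 70.1 in KO hypoxia. The hypoxia groups did not overlap with normoxia, and flox normoxia replicate 3 was apart from the other 2. Its interaction was -0.33 ± 0.34 (unadjusted p = 0.352), -0.87 without that library and -1.12 over the 9 libraries without Xist, where edgeR called it (adjusted p = 0.0436). Late activity-regulated genes had 0 positive and 2 negative of 16 (1 negative without KO hypoxia replicate 1), with the signalling regulator gene Rgs4 at -0.32 ± 0.12. Circadian clock genes had 0 positive and 3 negative of 17 at an unadjusted p under 0.05, but were centred near 0 as a class. Of the 17 estimates 9 were positive and 8 negative, with a median of 0.01 (0.02 without KO hypoxia replicate 1). The 3 negative genes included Npas2 (-0.32 ± 0.09) and Arntl (-0.33 ± 0.12), partners in the clock's activating complex. Glucocorticoid response genes, a list that includes Lcn2, had 4 of 17 positive and 0 negative, and 2 positive without KO hypoxia replicate 1.

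The weight of KO hypoxia replicate 1 was uneven between directions. Among the 4 KO hypoxia libraries it lay farthest from the additive level for 471 of the 920 positive genes, whereas for the 715 negative genes it was farthest in 226 and replicate 4 in 295. Without it, 655 of the 920 positive genes (71.2%) and 529 of the 715 negative genes (74.0%) kept their direction at an unadjusted p under 0.05. Leaving out any other library kept from 60.7% to 87.9% of the positive and from 56.6% to 80.1% of the negative genes, so this library was not the one whose removal cost the most genes: that was KO normoxia replicate 2 for both directions. In all 13 fits with 1 library left out, 292 positive and 253 negative genes kept both direction and an unadjusted p under 0.05.

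By class, the dependence on replicate 1 was uneven. The medians of the erythroid, pan-endothelial, pericyte and interferon lists came to -0.05 to 0.13 without it. Those of the matrix, reactive astrocyte, antigen presentation, cell cycle and cytokine lists stayed between 0.29 and 0.36, and those of the synaptic, glutamatergic, GABAergic and striatal lists were -0.08, -0.11, -0.09 and -0.35. KO hypoxia replicate 2, in turn, lay near the additive level for antigen presentation (0.02), complement (0.02), homeostatic microglia (0.01) and cytokine genes (-0.04), so the positive medians of these lists came from replicates 1, 3 and 4. Replicates 3 and 4 were the KO hypoxia libraries with Xist. With a term for Xist in the model and without KO hypoxia replicate 1, an alternative added after the data had been seen, the matrix median was 0.18, that of reactive astrocyte genes 0.28, of cytokine genes 0.16, of synaptic genes -0.09 and of striatal genes -0.24. Antigen presentation genes were then at 0.22, smooth muscle genes at 0.08 and interferon genes at -0.09. The 9 libraries without Xist hold only replicates 1 and 2 of KO hypoxia, so replicate 1 weighs more among them. Fitted on these 9 alone, the medians were 0.42 for matrix, 0.56 for reactive astrocyte, 0.62 for antigen presentation, 0.33 for interferon, 1.36 for erythroid and 1.11 for choroid plexus genes. The same fit gave -0.11 for synaptic, -0.03 for glutamatergic and -0.08 for oxidative phosphorylation genes, the last having the other sign with all libraries. Sex and group cannot be fully told apart here, since flox hypoxia held no library with Xist.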

How the data were processed

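RNA-seq of brain tissue gave gene counts and RPKM values in 13 libraries of 4 groups (3, 3, 3 and 4 libraries). The count table was deposited by the authors with whole-number reads per gene, raw and unscaled. The RPKM values, reads scaled by the authors to library size and gene length, were used in 2 alternatives only. Per the submitters' processing notes, GRCm39, HISAT2 and edgeR were used, without versions or roles. Whether counting used strand is not given in the sources used here.

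Counts were analysed with edgeR 4.0.16 in R 4.3.3 (TMM scaling, filterByExpr, quasi-likelihood fit of 4 group means, Benjamini-Hochberg adjustment over 22507 genes, threshold 0.05). The interaction is the contrast (KO hypoxia - KO normoxia) - (flox hypoxia - flox normoxia). Unadjusted p-values in the text are edgeR's unless another tool is named. The filter kept at least 99.951% of counts in each library. Of 55416 gene identifiers, 3333 had no symbol (0.346% of counts). No coordinates are given. CPM are on TMM-scaled library sizes, and the expected level in KO hypoxia is the KO normoxia mean times the flox hypoxia mean over the flox normoxia mean. Departures by library use log2(CPM + 0.1).

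Named genes were the 10 highest and 10 lowest interactions at an unadjusted p under 0.05 and at least 2 mean log2 CPM; the 8 smallest p-values stable to leaving out each library; for each list, up to 4 members with the smallest p and up to 2 nearest 0; genes called by an alternative with all libraries; and 14 fixed genes. Predicted and sex-linked genes were left out. The members, lists and rules were chosen with earlier results of these data known, so the lists are described by counts and medians and carry no test. Alternatives were RLE scaling, no composition factor, other count filters, DESeq2 1.42.0, limma 3.58.1 on log2(RPKM + 1) and log2(RPKM + 0.1), voom with sample quality weights, a replicate block, leaving out each library, a term for Xist, and the 9 libraries with Y-linked transcripts. The code was tested on simulated counts.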

Additional observations from a re-analysis of the deposited data

Results flagged for a closer look

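In the 4 KO hypoxia libraries, the only group large enough to test for a single distant value, 18 of the values over 43 lists and 102 genes had 1 library far from the other 3. The rule marks about 1 in 20 groups of independent, normally distributed values. Many of these genes were chosen for extreme interactions and the lists share members, so that rate is no background for the 18.

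KO hypoxia replicate 1 was the high library for most of them. It held 5305 CPM of Hba-a1 and 4814 CPM of Hbb-bs, the adult globin genes, 137 CPM of Bpgm and 40.47 CPM of Tent5c, genes of red cells, and 32.88 CPM of Hmox1 and 55.76 CPM of Ube2l6. It was also the high library for inflammatory and matrix genes, with 10 CPM of Lcn2, 27.52 of Cebpd, 38.92 of Lyz2, 27.8 of A2m, 16.06 of Osmr and 15.6 of Thbs1. Mean log2(CPM + 0.1) in this library was 1.619 for border-associated macrophage genes, against 0.8461 to 0.8835 in the other 3, and 6.29 for hypoxia-inducible factor targets and glycolytic genes, against 6.06 to 6.081.

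Other libraries stood apart for single values. KO hypoxia replicate 2 was high for Dnah6 (9.785 CPM) and low for cerebellar granule and Purkinje cell genes (2.88 against 3.054 to 3.08). KO hypoxia replicate 3 was high for Aplnr (4.514 CPM) and low for Pdcd10 (14.73 CPM). The part of blood content, tissue composition or library preparation in these values was not tested.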

How the results depend on the processing

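No gene passed an adjusted p under 0.05 with TMM or RLE scaling, without a composition factor, with a filter of 1 CPM in 3 libraries, with voom or with a term for Xist. Calls numbered 55 with no low-count filter, 3 with DESeq2, 2 with limma on log2(RPKM + 1) and 2 on log2(RPKM + 0.1), and 10 when only the 9 libraries with Y-linked transcripts were fitted, 2 of them from KO hypoxia. Leaving out 1 library gave 0 to 1 calls, the 1 being Serpina3n without KO normoxia replicate 3. Same-numbered libraries did not deviate together as a rule (correlations from -0.0177 to 0.137 over the same-numbered pairs, the highest between flox normoxia and KO hypoxia replicates 3, both with Xist), and the replicate block gave 1 call, Xist, with 912 positive and 630 negative genes at an unadjusted p under 0.05.

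Positive genes at an unadjusted p under 0.05 (920) numbered 1701 without a low-count filter and 553 with the Xist term and without KO hypoxia replicate 1, an alternative chosen after seeing the data. Negative genes (715) numbered 437 without a composition factor, 467 and 454 with limma at pseudocounts of 1 and 0.1, and 455 under the added alternative. The share of positive genes ranged from 53.1% to 62.8% over the fits that left out 1 library.

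Of 2545 values of named genes under alternatives, 33 in 8 genes had the other sign, all in genes that did not pass an unadjusted p of 0.05. Genes that passed it were mostly chosen by their values in the full fit, which favours a kept sign. With voom the values of the other sign were Klf2 (-0.075), Vegfa (-0.00021) and Tek (-0.023), and with the Xist term Klf2 (-0.022). In the 9 libraries they were Slco1c1 (0.055), Klf2 (-0.44), Klf4 (-0.11), Vegfa (-0.073) and Gfap (-0.11). With the Xist term and without KO hypoxia replicate 1 they were Klf2 (-0.34), Klf4 (-0.29), Vegfa (-0.083), Hba-a1 (-0.47), Tek (-0.039) and Nos3 (-0.045). Over the fits leaving out 1 library, Klf2 ranged from -0.28 to 0.28, Klf4 from -0.18 to 0.35, Vegfa from -0.083 to 0.13, Hba-a1 from -0.31 to 0.85, Tek from -0.11 to 0.068 and Nos3 from -0.057 to 0.16. The cause was not tested. Of 1100 list medians under alternatives, 1048 moved by less than the spread between replicates and 52 by more. That spread is the pooled standard deviation of the list's mean log2 level between single libraries of a group. Leaving out 1 library shifts a group mean by only part of that library's deviation, so the 1048 are no measure of stability. Leaving out 1 library turned the sign of the barrier, cholesterol, clock, homeostatic astrocyte, hypothalamus, immature neuron, immediate early, oligodendrocyte precursor, oxidative phosphorylation, pan-endothelial, pericyte and pituitary medians in at least 1 fit, and of no other list median. Genes under 2 log2 CPM are the least certain, since 6.87% of them had an interval within 1.5-fold.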
